A study of Homo sapiens with 30 samples.

Results

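This comparison sets cytosol RNA of a cell line carrying the Welander distal myopathy form of TIA1 (WDM) against that of a line carrying the wild-type form (WT), both after arsenite. Its members are the 6 libraries whose titles give cytosol, tetracycline and arsenite, 3 of the WDM line and 3 of the WT line, out of 30 libraries in the series. Both lines are Flp-In T-REx HEK293 derivatives, that is, human embryonic kidney cells with an inducible transgene, here GFP-TIA1a. Both groups received tetracycline, which switches the transgene on, and then 0.5 mM sodium arsenite for 60 min. The other groups used are cytosol RNA of both lines left untreated or given tetracycline alone, and RNA of the TIA1 granule fraction of both lines after tetracycline and arsenite, with 3 libraries in each. The labels describe 1 derivative line per protein form, so a difference between the forms of TIA1 and any other difference between the lines cannot be told apart. Nothing in the labels says that replicates came from separate cultures, so p-values measure the spread between these libraries, which may be technical.

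TIA1 is an RNA-binding protein with a prion-like tail that gathers stalled mRNAs into stress granules when translation initiation is blocked. Arsenite causes oxidative stress, and cells answer it through phosphorylation of eIF2, which lowers translation and raises the ATF4 programme known as the integrated stress response, and through heat-shock, NRF2 and immediate early genes. Welander distal myopathy is a late-onset muscle disease caused by a substitution in TIA1. The question addressed is which cytosolic RNAs differ between the lines while the cells are under this stress.

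Total counts ran from 12499022 to 13105930 in the WT libraries and from 13295864 to 16761512 in the WDM libraries, and 16670 genes passed the filter on low counts. Levels are given as CPM, the count of a gene scaled by the library total, and log2 fold changes are WDM minus WT with the standard error of the fit. TIA1 itself gave 0 counts in all 6 libraries and 3 counts in all 30. C2orf42, on the same strand, spans 99.32% of its exon length, so TIA1 could not serve as a check of the labels. Its paralog TIAL1 had 65.1, 60.1 and 52.8 CPM in the WT libraries and 88.3, 70.3 and 63.1 CPM in the WDM libraries, so the groups did not separate fully (log2 fold change 0.31 ± 0.14 SE, edgeR adjusted p = 0.179). All 10 epithelial and kidney markers of HEK293 were measured. KRT8, KRT18 and KRT19, keratins of simple epithelia, fell by 0.55, 0.55 and 0.82 on the log2 scale, and the others were not called. Of markers of other cell types, 1 of 6 for leukocytes, 0 of 5 for endothelium, 4 of 6 for fibroblasts and 2 of 7 for skeletal muscle passed the filter. CD3E and CD68 were at 0 counts in all 6 libraries. The fibroblast markers COL3A1 and PDGFRA rose, while COL1A2 and DCN stayed at or below 0.159 CPM in every library. PDGFRA kept its call in 4 of the 6 fits that leave out a library, and COL3A1 in all 6. The lowest log2 fold change among the fibroblast markers tested was -0.40, and none was called lower. The fibroblast list summed to 8.73 to 10.9 CPM in the WT line and 11.6 to 13.7 CPM in the WDM line, and its part in the matrix genes described further on was not tested. Replicate libraries of the WDM line differed more among themselves, with a chi-square per degree of freedom of 9.07 to 16.5, than those of the WT line, with 2.80 to 4.02.

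Under arsenite, 1726 genes differed between the lines at an edgeR adjusted p under 0.05, or 10.4% of those tested. In the WDM line 830 genes were higher (4.98%) and 896 were lower (5.37%). Most differences were small: the median called change was 1.56-fold upward and 1.48-fold downward. A log2 fold change of at least 1 was reached by 236 higher genes (1.42%) and 154 lower genes (0.924%). Of these, 31 higher and 16 lower genes reached a log2 fold change of 4. The median log2 fold change over all genes tested was 0.011. Without WT replicate 3 the count of called genes was 1094. In bulk RNA, fewer cells expressing a gene and less of its RNA per cell cannot be told apart.

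The largest differences were genes read almost only in one line. GSTP1, which encodes a glutathione S-transferase that conjugates glutathione to reactive compounds, had 0, 0.0793 and 0.0763 CPM in the WT libraries and 80.1, 80.0 and 87.1 CPM in the WDM libraries. With at most 1 read in any WT library, GSTP1 was at least 343-fold higher in the WDM line (edgeR adjusted p = 3.34e-17). The fold is set against 3 counts in the smallest WT library. ZNF804A, a zinc-finger gene, had 0.48, 0.0793 and 0.305 CPM in the WT line against 68.2, 73.7 and 61.6 CPM in the WDM line. Its log2 fold change was 7.82 ± 0.36 SE (edgeR adjusted p = 5.83e-11). The genes with the largest differences were chosen so that no library of one line overlaps the other line.

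Several others encode channel subunits or receptors. KCNT2, a sodium-activated potassium channel subunit, rose from 0.381 to 0.555 CPM in the WT libraries to 36.4 to 48.5 CPM in the WDM libraries. KCNJ3, an inwardly rectifying potassium channel subunit, rose from 0.238 to 0.40 CPM to 7.94 to 12.1 CPM. CHRM3, a muscarinic acetylcholine receptor, rose from 0.952 to 1.30 CPM to 21.0 to 28.4 CPM. These 3 had log2 fold changes of 6.51, 4.92 and 4.30. EPHA6, an ephrin receptor, stood out by its level: 7.76, 8.41 and 7.17 CPM in the WT line and 202.7, 165.4 and 154.4 CPM in the WDM line (log2 fold change 4.47 ± 0.29 SE, edgeR adjusted p = 3.47e-08). The adaptor DOK6, the protocadherin PCDH10, the homeobox gene MEOX2, and PRR16, PLXDC2 and GALNTL6 had log2 fold changes of 7.17, 4.27, 4.12, 4.59, 4.09 and 4.05. Noncoding RNAs completed the 15: KC6 was at least 82.9-fold higher, and LINC01036 and LINC00351 had log2 fold changes of 6.67 and 4.50.

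Of the 15 genes with the largest fall, 7 carry zinc-finger names. ZNF738 had 8.16, 10.8 and 7.71 CPM in the WT libraries and 0 counts in every WDM library, which makes it at least 39.4-fold lower (edgeR adjusted p = 1.54e-09). ZNF22 fell from 18.6, 17.6 and 18.9 CPM to 0.328, 0.239 and 0.752 CPM (log2 fold change -5.42 ± 0.27 SE, edgeR adjusted p = 1e-11). ZNF486, ZNF600, ZNF730, ZNF676 and ZNF257 had log2 fold changes of -4.79, -4.47, -4.12, -4.06 and -3.79. H3C7, a replication-dependent histone H3 gene, had 16.2, 16.0 and 19.6 CPM in the WT line and 0, 0.0597 and 0.15 CPM in the WDM line, at least 76.5-fold lower. LAYN, a hyaluronan receptor gene, had a log2 fold change of -5.46, and LGALS8, encoding galectin-8, one of -2.92. LINC00839 and NECTIN3-AS1, both noncoding, had -3.71 and -2.94. Histone H3 genes are near-identical copies, so the count of H3C7 is uncertain.

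**Figure D1:**
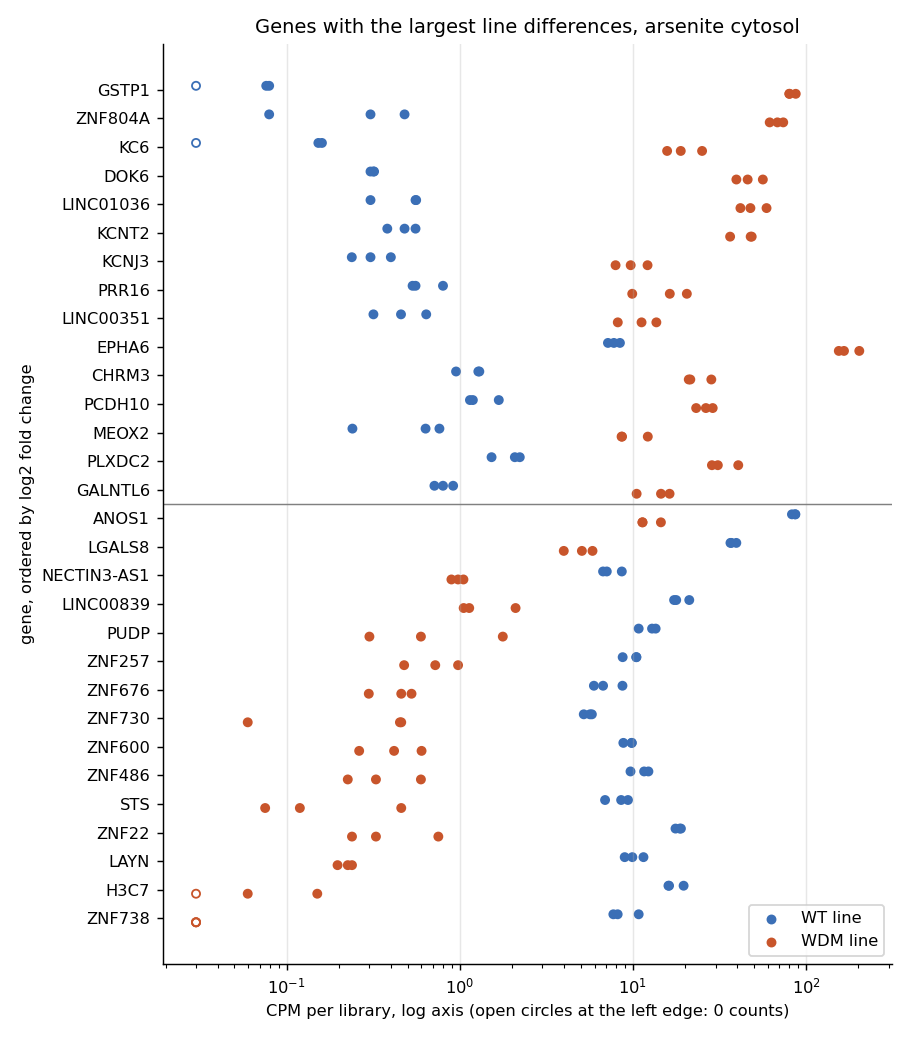
CPM in each of the 6 arsenite cytosol libraries (log axis) for the 15 genes with the largest rise and the 15 with the largest fall in the WDM line, 1 point per library. Genes were chosen so that WT and WDM points do not overlap, and ZNF738 has 0 counts in every WDM library.

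A run of neighbouring genes near the short-arm end of the X chromosome was low together. PUDP, a pseudouridine phosphatase, had 13.5, 10.8 and 12.9 CPM in the WT line and 1.77, 0.597 and 0.301 CPM in the WDM line. STS, steroid sulfatase, had 9.36, 6.90 and 8.55 CPM against 0.459, 0.119 and 0.0752 CPM. ANOS1, which encodes the extracellular matrix protein anosmin, had 82.8, 86.6 and 86.5 CPM against 14.5, 11.3 and 11.4 CPM. Their log2 fold changes were -3.78, -5.17 and -2.79. The next tested gene along the chromosome, TBL1X, did not follow, with a log2 fold change of 0.46 (edgeR adjusted p = 0.318).

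The bases before the start of genes on opposite sides of the comparison are shown for 5 of the genes with the largest differences. The windows end just before the counted gene start, run 5′ to 3′ on the gene's strand, and have every CG in capitals (RefSeq, GRCh38.p14). The window of GSTP1 is chr11:67583562-67583741, plus strand, and that of ZNF804A chr2:184598279-184598528, plus strand, both genes high in the WDM line. For genes low in the WDM line, the windows are chrX:8732138-8732387, minus strand (ANOS1), chr10:45000673-45000922, plus strand (ZNF22), and chr6:26250636-26250885, minus strand (H3C7).
GSTP1: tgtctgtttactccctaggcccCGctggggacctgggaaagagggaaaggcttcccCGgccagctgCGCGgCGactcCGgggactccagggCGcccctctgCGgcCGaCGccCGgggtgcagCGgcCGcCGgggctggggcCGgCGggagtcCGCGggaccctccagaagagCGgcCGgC
ZNF804A: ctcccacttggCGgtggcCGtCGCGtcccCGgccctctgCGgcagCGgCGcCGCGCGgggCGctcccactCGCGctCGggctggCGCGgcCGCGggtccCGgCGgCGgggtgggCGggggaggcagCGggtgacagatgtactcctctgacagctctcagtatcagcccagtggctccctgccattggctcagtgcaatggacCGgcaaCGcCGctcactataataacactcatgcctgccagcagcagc
ANOS1: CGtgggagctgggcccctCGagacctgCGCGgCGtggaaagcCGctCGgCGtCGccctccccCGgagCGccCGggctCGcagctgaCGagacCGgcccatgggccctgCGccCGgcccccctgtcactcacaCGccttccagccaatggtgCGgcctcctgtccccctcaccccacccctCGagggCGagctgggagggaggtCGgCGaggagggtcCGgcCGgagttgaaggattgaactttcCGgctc
ZNF22: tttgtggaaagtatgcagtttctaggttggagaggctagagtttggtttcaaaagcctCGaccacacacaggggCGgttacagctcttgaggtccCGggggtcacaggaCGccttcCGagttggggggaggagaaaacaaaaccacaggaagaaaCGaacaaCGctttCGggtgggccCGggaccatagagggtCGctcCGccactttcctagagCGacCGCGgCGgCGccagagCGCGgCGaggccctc
H3C7: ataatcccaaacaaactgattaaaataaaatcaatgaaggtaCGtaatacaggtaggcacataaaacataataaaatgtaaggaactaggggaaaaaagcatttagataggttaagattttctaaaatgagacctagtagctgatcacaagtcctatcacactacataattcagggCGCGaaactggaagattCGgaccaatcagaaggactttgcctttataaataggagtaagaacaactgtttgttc
GSTP1 held 20 CG in 180 bases. ZNF804A held 27, ANOS1 26, ZNF22 19 and H3C7 4 in 250 bases each, so CG-rich starts occur on both sides. CG reads the same on both strands. Over the 250 bases before the RefSeq start, the median was 21 CG for the 11282 tested genes with an entry, 11 for the 141 higher genes with a log2 fold change of at least 1, and 15 for the 99 lower ones of that size. At least 10 CG were found before 84.1%, 57.5% and 65.7% of these genes. These counts describe the letters only.

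The genes with the largest rise also differed in kind. Long noncoding RNAs made up 33.9% of the 236 higher genes with a log2 fold change of at least 1, 15.6% of the 154 lower genes of that size, and 15.4% of all genes tested. Their median level over the libraries was low in both sets, 3.40 and 2.39 CPM against 23.2 CPM for all genes tested. The median gene span was 76.2 kb for the higher set, 43.1 kb for the lower set and 32.5 kb for all.

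Of the 10 most abundant called genes, 5 were higher and 5 lower in the WDM line. EEF2, the translation elongation factor that moves the ribosome along mRNA, had 3424, 3443 and 3543 CPM in the WT line and 2408, 2449 and 2855 CPM in the WDM line (log2 fold change -0.44 ± 0.10 SE, edgeR adjusted p = 0.00374). CSE1L, a nuclear export factor for importin-alpha, fell from 784.7, 807.9 and 796.7 CPM to 522.3, 545.3 and 530.9 CPM (log2 fold change -0.59). IRS4, an insulin receptor substrate abundant in HEK293, rose from 1005, 984.2 and 864.5 CPM to 1974, 1384 and 1814 CPM (log2 fold change 0.85). The X-linked genes KLHL15, EIF2S3 and RBBP7 had log2 fold changes of 0.44, 0.53 and 0.59. CALR, the chaperone calreticulin, and RPS27A, a fusion of ubiquitin and a ribosomal protein, had -0.44 and -0.36. HDLBP and EPRS1 had -0.25 and 0.26. EEF2, CSE1L and CALR lie in the chromosomal stretches described further on. The calls of HDLBP, EPRS1 and RPS27A each held in 1 of the 6 fits that leave out a library, and that of CALR in 3.

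Among integrated stress response genes 6 of 23 members tested were higher and 0 lower, with a median log2 fold change of 0.19. Over all genes tested 4.98% were higher and 5.37% lower, with a median of 0.011. DDIT4, an inhibitor of mTORC1, had 102.4, 86.6 and 95.5 CPM in the WT line and 188.7, 145.8 and 203.9 CPM in the WDM line (log2 fold change 0.91 ± 0.12 SE, edgeR adjusted p = 1.44e-05). SLC7A5, a transporter of large neutral amino acids, rose from 53.7, 48.7 and 53.3 CPM to 96.3, 99.1 and 89.6 CPM (log2 fold change 0.86). CHAC1, SESN2, PSAT1 and PHGDH, which act in glutathione breakdown, stress signalling and serine synthesis, had log2 fold changes of 0.92, 0.61, 0.56 and 0.39. In untreated cells and with tetracycline alone the list had 7 higher members and 1 lower one, so line differences in it were also called without arsenite.

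Immediate early genes, which are transcribed within minutes of a stimulus, showed 4 higher and 1 lower of 31. That is 16.1% called, against 10.4% of all genes tested. EGR1 had 126.1, 105.3 and 104.2 CPM in the WT line and 213.8, 156.0 and 140.5 CPM in the WDM line (log2 fold change 0.59 ± 0.14 SE, edgeR adjusted p = 0.00688). Without WDM replicate 1 its adjusted p was 0.0574. In untreated and tetracycline-treated cells EGR1 had log2 fold changes of 0.29 and -0.06, neither called. The change of its line difference under arsenite was not called against either group. MYC had a log2 fold change of 0.41, and its adjusted p reached 0.0614 without WDM replicate 3. It also lost its call without WT replicate 2. EGR3 (0.93) and ZFP36 (0.61), an mRNA decay factor, kept their calls in 2 and 1 of the 6 fits that leave out a library. DUSP5, a phosphatase of ERK, fell by 0.57 on the log2 scale. The list had 3 higher and 2 lower members in untreated cells and 1 higher and 4 lower with tetracycline. Whether these counts differ was not tested.

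Other lists of arsenite-responsive genes had shares of called members from 4.76% (heat-shock chaperones) to 21.1% (glutathione S-transferases and arsenic handling), against 10.4% of all genes. Of 21 heat-shock chaperones 1 was lower, HSPB8, a small heat-shock protein that is itself a distal myopathy gene. It had 4.08, 5.00 and 5.34 CPM in the WT line and 0.984, 1.67 and 1.05 CPM in the WDM line (log2 fold change -1.94 ± 0.26 SE, edgeR adjusted p = 2.34e-05). HSPB8 was also the 1 called member of 17 myopathy quality-control genes. Of 23 NRF2 genes 2 were higher: SLC7A11, the cystine transporter, rose from 87.9, 80.0 and 73.0 CPM to 170.9, 145.1 and 152.3 CPM, and GCLC had a log2 fold change of 0.25 and kept its call in 1 of 6 fits that leave out a library. Of 6 metal-response genes SLC39A14, a zinc and iron importer, was lower (-0.53), and it lies in a lower chromosome 8 stretch described further on. Among 19 glutathione S-transferase and arsenic-handling genes GSTP1, MGST1 (0.76) and the water and glycerol channel AQP3 (0.89) were higher and GSTT2B (-1.24) was lower. AQP3 kept its call in 3 and GSTT2B in 2 of the 6 fits that leave out a library.

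Of 25 stress granule protein genes, 0 were called, with a median log2 fold change of 0.05. Over all genes tested 10.4% were called and the median was 0.011, and the list was not tested against these values. Among 29 P-body and mRNA decay genes 17.2% were called, and the median log2 fold change of the list was 0.18. DCP2, the decapping enzyme, was higher (0.24). CNOT7 and PARN, both deadenylases, LSM14B and the silencing factor TNRC6A were lower, at -0.64, -0.65, -0.60 and -0.42. TNRC6A lost its call in all 6 fits that leave out a library and DCP2 in 5. All 4 lower genes lie in the chromosomal stretches described further on.

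Developmental and matrix genes were described by list. Called shares of the lists in this paragraph ran from 9.52% (integrins) to 60% (protocadherins), against 10.4% of all genes tested. Of 23 homeobox cluster genes 7 were higher and 0 lower, led by HOXC11, which rose from 3.60, 2.86 and 3.59 CPM to 19.6, 20.3 and 22.2 CPM (log2 fold change 2.62). HOXB3 had a log2 fold change of 0.66 and HOXD13 one of 0.29. HOXC11 and HOXB3 kept their calls in all 6 fits that leave out a library, and HOXD13 in 2 of them. Of 30 collagen chains 6 were higher and 4 lower. COL2A1, the chain of cartilage collagen, rose from 68.5, 62.2 and 75.2 CPM to 214.5, 231.4 and 234.1 CPM (log2 fold change 1.72 ± 0.09 SE, edgeR adjusted p = 1e-11). COL12A1 and COL24A1 were lower (-1.35 and -1.61). Of 66 protocadherins listed, 10 passed the filter, and of these 4 were higher and 2 lower, with a median log2 fold change of -0.07. PCDH9 and PCDH1 kept their calls in 1 and 2 of the 6 fits that leave out a library. PCDH10, PCDH15, PCDH17 and PCDH19 kept theirs in all 6. Of 17 laminin and basement membrane genes 3 were higher and 1 lower, and of 48 sodium and potassium channel genes 6 were higher and 3 lower. Of 8 cadherins and catenins 1 was higher (CDH3, 1.17), of 21 integrins 2 were higher (ITGA1 and ITGA9, 0.48 and 0.62), and of 51 histone genes 3 were higher and 4 lower. The neuronal list had 1 higher and 1 lower member of 14. SYT1, a calcium sensor of synaptic vesicles, rose from 5.68, 5.24 and 2.59 CPM to 71.9, 60.3 and 65.9 CPM, whereas SYP, another vesicle protein, fell from 31.6, 29.4 and 30.0 CPM to 12.6, 14.3 and 13.2 CPM.

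Antigen presentation and interferon genes were split, with 2 higher and 3 lower of 31 (16.1% called, against 10.4% of all genes). IFI16, a DNA sensor, was at least 11.6-fold higher, and IFITM3 had a log2 fold change of 1.75. HLA-B, OAS3 and HLA-DRB1 were lower, at -0.70, -1.03 and -0.44. BMP and TGF-beta genes had 2 higher (BMP4 and INHBE, 1.26 and 0.73) and 2 lower members (ID1 and BMP7, -0.99 and -0.46) of 34, and ID1 lies in a lower chromosome 20 stretch. Of 34 Wnt genes SFRP1 and FZD6 were lower (-0.82 and -0.32). Called shares of the BMP and Wnt lists, 11.8% and 5.88%, were near or below the 10.4% of all genes. In fits that leave out a library HLA-DRB1 and INHBE kept their calls in 2 of 6 and FZD6 in 1. Ribosomal protein genes showed 0 higher and 7 lower of 78 (8.97% called), and nuclear-encoded respiratory chain genes 1 higher and 6 lower of 61 (11.5%). Of these lower genes, 5 and 4 lie in the chromosomal stretches. Outside them, the lower genes RPS27A and RPS27L kept their calls in 1 of the 6 fits that leave out a library. The lower genes ATP5MK and NDUFA8 kept theirs in 2 of those fits, as did COX5A, the 1 higher respiratory chain gene. No mitochondrial genome transcript (15 tested) and no nuclear-retained RNA (9 tested) was called. By share of counts, ribosomal protein genes took 4.75%, 4.91% and 5.00% in the WT libraries and 4.10%, 4.28% and 4.85% in the WDM libraries (exact two-sided permutation test, p = 0.2, where 3 against 3 allows no p below 0.1).

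**Figure D2:**
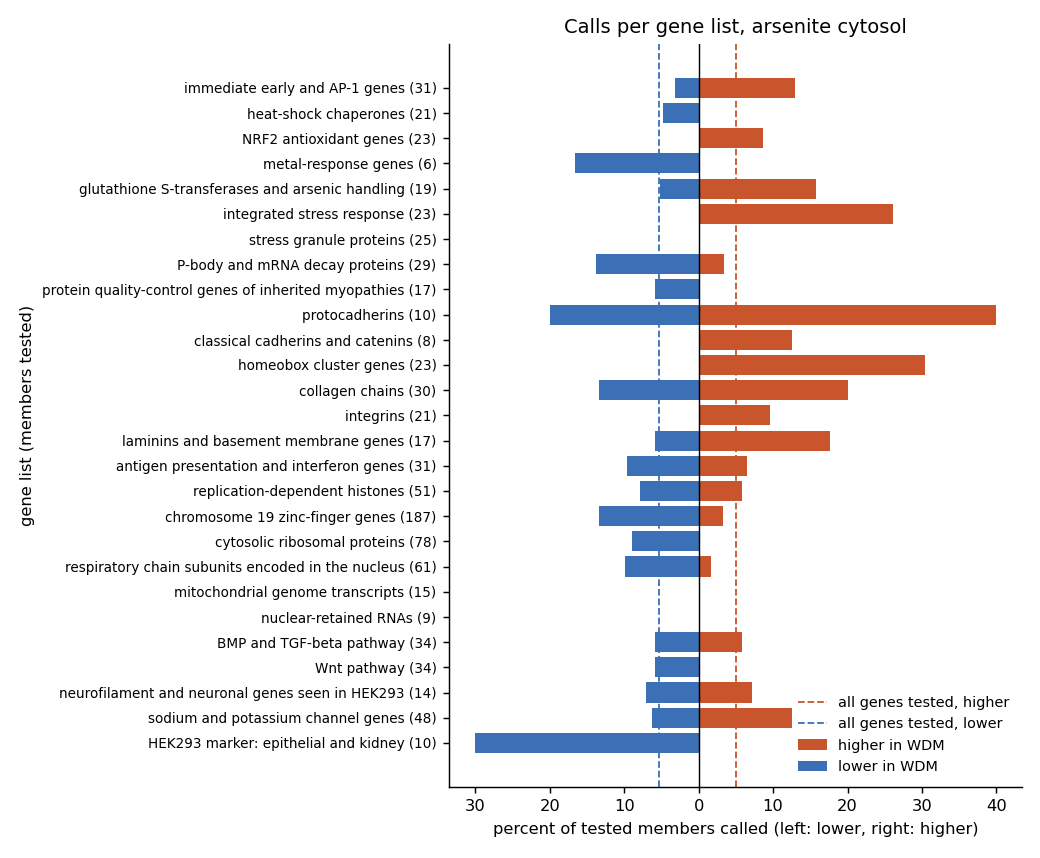
Percent of tested members of each gene list called higher (right) or lower (left) in the WDM line, with the number tested in parentheses and dashed lines at the 4.98% and 5.37% of all genes. Integrated stress response and homeobox genes have higher members and no lower ones, and stress granule protein genes have none of either.

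Chromosome 19 zinc-finger genes were lower in 25 and higher in 6 of 187. That is 16.6% called, against 10.4% of all genes tested, of which 5.37% were lower and 4.98% higher. Of the 25 lower genes, 5 lie in the lower chromosome 19 stretches described further on. In fits that leave out a library, the higher genes ZNF155, ZNF442 and ZNF296 kept their calls in 0, 1 and 1 of 6. ZNF529 and ZNF677, also higher, kept theirs in 2 and 4. The lower genes ZNF404, ZNF83, ZNF578 and ZNF28 kept theirs in 0, 2, 3 and 4. Lower genes were more frequent in a cluster of 28 tested genes between positions 19865882 and 24129968. There 11 were lower, 0 were higher and 8 had a log2 fold change of -2 or less. The bounds of this cluster were not among the planned comparisons, so its counts are a description. Members were not shifted together: 17 of the 28 had an absolute log2 fold change under 0.5. Outside the cluster, 14 of 159 were lower and 6 higher. Reads of near-identical zinc-finger genes may be shared between copies.

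Neighbouring genes were also compared along chromosomes. In windows of 25 neighbouring tested genes with a median log2 fold change of -0.4 or less, or of 0.4 or more, 11 stretches were found after joining overlapping windows, 9 lower and 2 higher in the WDM line. This split depended on the window: with 15 neighbouring genes 14 lower stretches of 852 genes and 14 higher stretches of 280 genes were found, against 878 and 53 genes with windows of 25. They hold 931 of the 16670 genes tested (5.58%), 427 of the 896 lower genes (47.7%) and 23 of the 830 higher genes (2.77%). The stretches were chosen on these fold changes, so these shares are a description. Lower genes with a log2 fold change above -1 lay there in 404 of 742 cases, and those at -1 or less in 23 of 154. None of the 15 genes with the largest fall did.

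On chromosome 20, 156 of 426 genes tested were lower (36.6%) and 8 higher. From RALGAPA2 to RNF114, 102 of 207 genes were lower with a median log2 fold change of -0.43. From GNAS-AS1 to PCMTD2, 32 of 65 were lower with a median of -0.44. Examples are PSMA7, a proteasome subunit (-0.66), EIF2S2, the beta subunit of eIF2 (-0.43), and NORAD, a noncoding RNA that binds Pumilio proteins (-0.46). On chromosome 16, 88 of 192 genes from NPIPA5 to ORC6 were lower (median -0.46), including TUFM, the mitochondrial elongation factor (-0.66). On chromosome 19, 66 of 119 genes from TMEM259 to CATSPERD were lower (median -0.53), including EEF2 and LMNB2, a nuclear lamin (-0.77). On chromosome 8, 56 of 115 genes from RPL23AP53 to CDCA2 were lower (median -0.49), and on chromosome 3, 33 of 61 from LINC02043 to FAM157A (median -0.51), including TFRC, the transferrin receptor (-0.40). The higher stretches were on chromosome 4 up to PCDH10 (9 of 25 genes called higher) and chromosome 21 from TEKT4P2 to LTN1 (9 of 28).

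**Figure D3:**
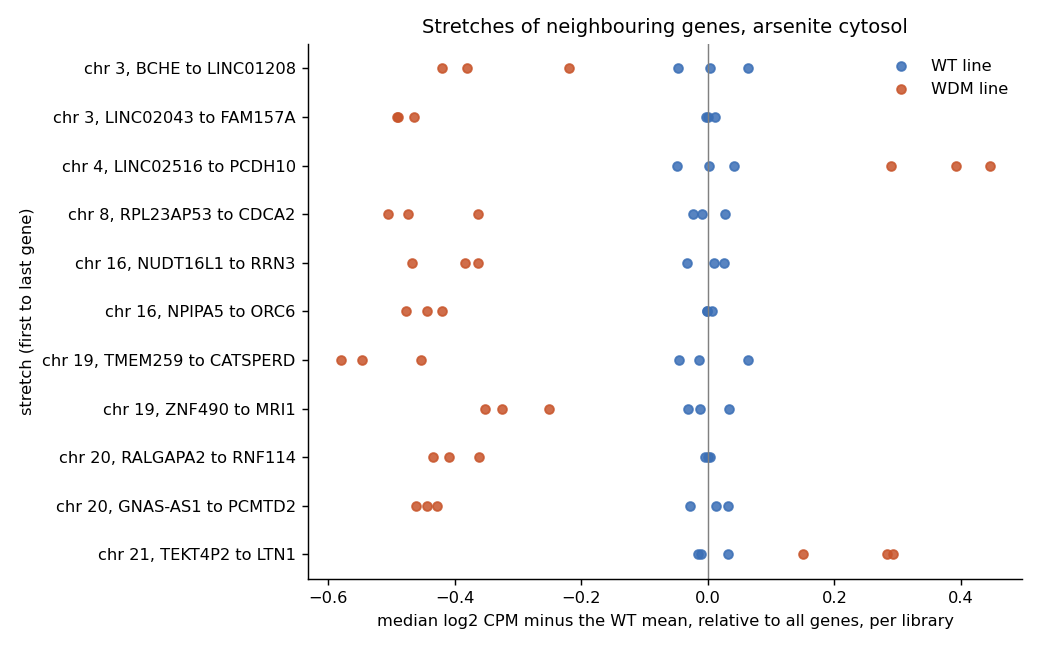
Level of each of the 11 stretches in each arsenite cytosol library, as the median over its genes of log2 CPM minus the WT mean, relative to the median of all genes tested. WDM libraries lie below WT libraries in 9 stretches and above them in 2.

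The stretches were measured again in groups that did not choose them. The median for chromosome 16 from NPIPA5 to ORC6 was -0.48 in untreated cells, -0.44 with tetracycline and -0.33 in the granule fraction. For chromosome 19 from TMEM259 to CATSPERD the values were -0.47, -0.50 and -0.27. Chromosome 20 from RALGAPA2 to RNF114 stood at -0.20 in untreated cells and -0.40 with tetracycline, and the second chromosome 20 stretch at -0.20 and -0.45. The chromosome 19 stretch from ZNF490 to MRI1 stood at -0.26, -0.33 and, in the granule fraction, -0.05, with 1 gene called lower there. The chromosome 21 stretch stood at 0.46, 0.20 and 0.22. The other 5 stretches kept their sign in all 3, with medians from -0.26 to -0.57 in the lower ones and from 0.23 to 0.31 in the chromosome 4 one. Both chromosome 20 stretches were therefore nearer to 0 in untreated cells than in either tetracycline-treated group, a difference that was not tested.

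Most line differences under arsenite had the same sign without it. Separate libraries of the same lines gave 1631 called genes in untreated cells (9.78%), 2099 with tetracycline (12.6%) and 1460 of 18366 in the granule fraction under arsenite (7.95%). Of the 830 higher genes, 800 had the same sign in untreated cells and 821 with tetracycline, and 399 and 570 were called there. Of the 896 lower genes, 881 and 888 had the same sign, and 550 and 669 were called. In the granule fraction 728 of 823 higher and 863 of 890 lower genes with a value had the same sign. No gene was called in opposite directions. All 3 cytosol comparisons called 849 genes in the same direction, 355 higher and 494 lower.

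**Figure D4:**
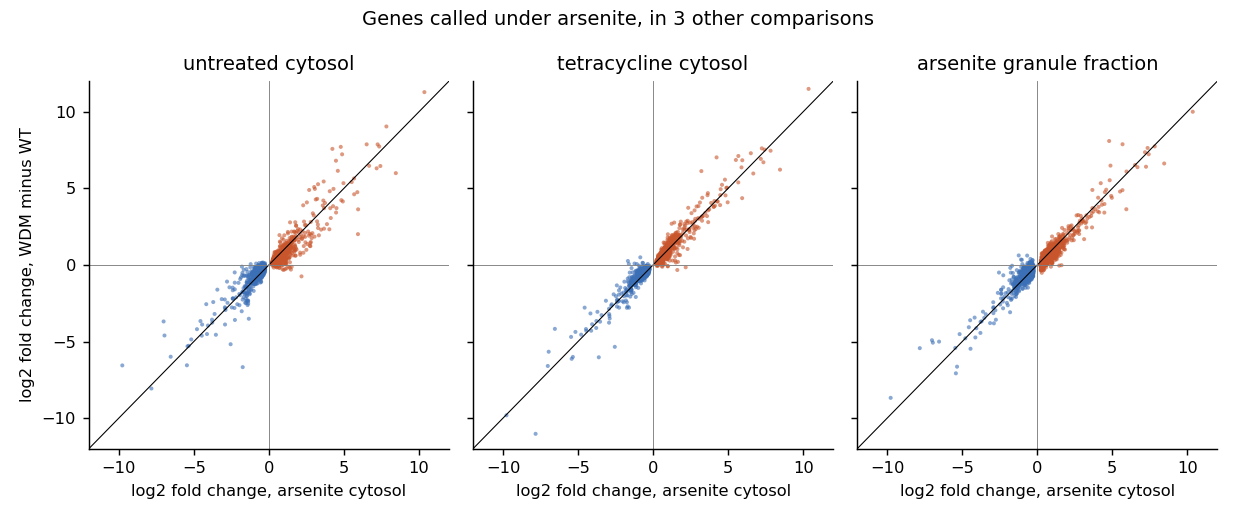
Log2 fold change (WDM minus WT) of the genes called in arsenite cytosol (horizontal axes) against untreated cytosol, tetracycline cytosol and the arsenite granule fraction (vertical axes), 1 point per gene, with the line of equal values. Most of the 830 higher (orange) and 896 lower (blue) genes keep their sign.

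A further 387 genes were called under arsenite alone, 216 higher and 171 lower. Of these, 336 had the same sign in both other cytosol comparisons. Being called in one comparison and not in another does not show a difference, so the change itself was tested as an interaction. Against untreated cells 4 genes passed (0.024%), and 760 (4.56% of those tested) had an unadjusted p under 0.05. Against tetracycline alone both edgeR and DESeq2 called 0 (0%). In edgeR, 332 (1.99%) had an unadjusted p under 0.05, so neither share exceeded 5%.

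ANOS1 was the clearest of the 4. Untreated WT libraries had 116.9, 108.0 and 93.8 CPM and untreated WDM libraries 49.1, 50.4 and 54.0 CPM. With tetracycline alone the WT line had 121.4, 99.3 and 106.4 CPM and the WDM line 17.9, 16.7 and 19.0 CPM, so the gap was already wide before arsenite. Its line difference was -1.09 in untreated cells, -2.66 with tetracycline and -2.79 with arsenite, a change of -1.70 ± 0.14 SE against untreated (edgeR adjusted p = 6.89e-07) and of -0.13 against tetracycline. LRRC7, a postsynaptic scaffold gene, changed by -1.79 ± 0.31 SE and APOLD1, an endothelial early response gene, by 0.84 ± 0.14 SE against untreated cells, and by 0.09 and -0.07 against tetracycline. COL5A2, a collagen V chain, differed from these in its values: the WDM line had 38.4, 40.6 and 43.7 CPM with tetracycline and 28.6, 26.2 and 30.0 CPM with arsenite, against 7.60, 6.29 and 8.43 and then 7.60, 8.97 and 8.39 CPM in the WT line. Its change was -1.03 ± 0.17 SE against untreated cells and -0.65 ± 0.16 SE against tetracycline (edgeR adjusted p = 1). The calls of LRRC7 and APOLD1 each held in 1 of 6 fits that leave out an arsenite library, that of COL5A2 in 0 and that of ANOS1 in all 6.

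**Figure D5:**
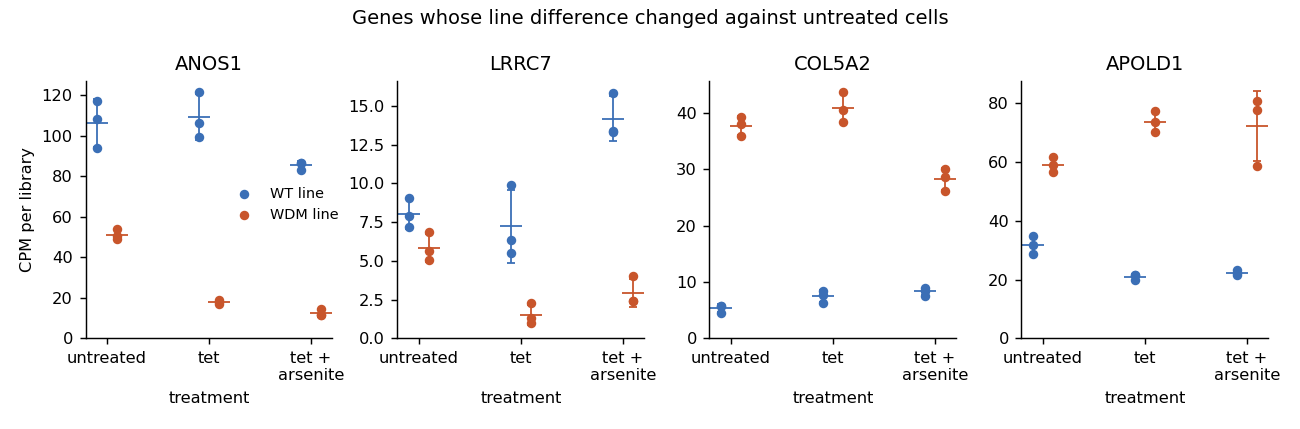
CPM of ANOS1, LRRC7, COL5A2 and APOLD1 in each cytosol library by treatment, with mean and SD of 3 libraries per group. ANOS1, LRRC7 and APOLD1 show nearly the same line difference with tetracycline alone as with tetracycline and arsenite.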

How the data were processed

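Cytosol RNA libraries were made with a stranded total-RNA kit after rRNA removal, per the labels' protocols. The authors deposited raw read counts per gene in 1 table. The submitters' processing notes name Trimmomatic, STAR, Picard, featureCounts and GRCh38, with no versions or settings, so the handling of strand, overlapping genes and shared reads is not given in the sources used here. Samples were grouped and numbered by title, and no library was pooled. The members and gene lists were chosen with earlier results of these data known.

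The 18 cytosol libraries were fitted together with edgeR 4.0.16 in R 4.3.3: filterByExpr (minimum count 10, minimum total 15), TMM factors, a group-means model and the robust quasi-likelihood F-test, with Benjamini-Hochberg adjustment over 16670 genes. The threshold for a call was an adjusted p below 0.05. The 12 granule libraries were fitted apart. The script was tested on simulated data. A fold against a group with at most 3 counts per library was computed against 3 counts in its smallest library, which covers counting error only. Stretch levels per library used log2 of CPM plus 0.5. Identifiers were matched to GENCODE release 44 (60463 of 60664). Replicate libraries differed by more than sampling noise, so each counted once.

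Genes named are the 15 higher and 15 lower with the largest change among called genes with a symbol, a mean of 5 CPM or more in the higher group and non-overlapping groups, the 10 most abundant called genes, up to 5 genes per interaction, called list members, TIA1 and TIAL1. A few members of the lists are not reported here. Stretch examples and TBL1X were picked with their values in view. The alternatives tried were no low-count filter, RLE factors, no factors beyond library size, a replicate block, each library left out, the 6 libraries alone, DESeq2 1.42.0 and windows of 15 genes. TMM factors from genes outside the stretches were added after seeing the data.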

Additional observations from a re-analysis of the deposited data

Results flagged for a closer look

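The line difference under arsenite differed from that in untreated cells, by the test of the difference itself, for ANOS1 (-1.70 on the log2 scale), APOLD1 (0.84), COL5A2 (-1.03) and LRRC7 (-1.79). Against tetracycline alone the changes were -0.13, -0.07, -0.65 and 0.09, and none was called. The treated groups differ from untreated cells by tetracycline as well as arsenite, and these cannot be told apart in the comparison with untreated cells.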

How the results depend on the processing

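The count of 1726 called genes stayed between 1491 and 2315 under the settings that keep all 6 arsenite libraries, and between 1094 (without WT replicate 3) and 2205 (without WDM replicate 2) when 1 was left out. Called genes changed by 1 or more on the log2 scale numbered 346 to 476, and 348 to 479 with a library left out. TMM factors from genes outside the stretches, an alternative chosen after seeing the data, gave 703 higher and 1053 lower genes. The change of the line difference against untreated cells was called for 2 genes with library size alone, for 17 with no low-count filter, and for 1 to 3 genes with a library left out, against 4. The cause was not tested. Against tetracycline alone 0 genes were called in every setting run. Windows of 15 genes gave 28 stretches, 14 lower and 14 higher, in place of 11, 9 lower and 2 higher. On chromosome 20 there were 6 in place of 2. With the replicate number as a block, 2315 genes were called, 418 of them with a log2 fold change of at least 1, and 5 and 0 changes against untreated and tetracycline. Same-numbered libraries of the lines correlated at 0.15, -0.11 and 0.11 in their deviations, so the numbers were not taken as pairs. Of 166 named genes none changed sign in any setting, and 116 kept their side of the threshold in all of them. Most were named because the main fit called them, and the settings share most libraries, so stable signs were likely beforehand. Leaving mitochondrial transcripts out of the totals changed no share beyond its spread. They took only 0.114% to 0.144% of counts in the arsenite cytosol libraries, so this setting could hardly move another share. At a count of 0, a level of up to 0.179 to 0.24 CPM is allowed.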
